A study of Mus musculus with 38 samples.

Results

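Cathepsins and lysosome genes were followed through the differentiation of mouse embryonic stem cells (mESCs) under retinoic acid (RA). The set held 9 of the 23475 genes of the bulk expression table: the cysteine cathepsins Ctsb, Ctsc, Ctsh, Ctsl and Ctsz, the aspartic cathepsin Ctsd, the asparaginyl endopeptidase Lgmn (legumain), and Lamp1 and Lamp2, which encode the main membrane glycoproteins of the lysosome. All 9 were chosen by name and none was dropped.

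Lysosomes are acidic compartments in which proteins, lipids and sugars taken up or discarded by the cell are broken down. Cathepsins are made as inactive precursors, carry mannose 6-phosphate tags that most of them need to reach the lysosome, and mature at low pH, where legumain trims several of them to their final chains. The yolk sac endoderm of the rodent embryo is a tissue with very active endocytosis and lysosomal digestion, through which the embryo is fed before a placenta works. Many lysosomal genes carry the CLEAR element, which contains the letters GTCACGTG and is bound by the MiT transcription factors Tfeb, Tfe3 and Mitf.

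E14 mESCs were held in 2i/L, a medium with a MEK inhibitor at 1 µM, a GSK3 inhibitor at 3 µM and LIF at 1000 U/ml, and were then moved to N2B27 without these factors, with RA at 0.25 µM. Bulk 3′-end RNA-seq with unique molecular identifiers (UMIs) covered whole cultures at 0 (2i/L), 6, 12, 24, 36, 48, 60, 72, 84 and 96 h, with a second mESC library. It also covered CD24+/PDGFRA- (ectoderm-like) and CD24-/PDGFRA+ (extraembryonic endoderm-like, XEN-like) cells sorted after 96 h, with 2 libraries each, and 1 long-term culture of each type in N2B27 with EGF at 20 ng/ml and FGF2 at 10 ng/ml. The ectoderm-like culture was at passage 5 and the XEN-like culture was 3 weeks old. Cells of the 48 h culture without PDGFRA were sorted into CD24 quartiles Q1 to Q4, and those of the 72 h culture into CD24 terciles T1 to T3, beside PDGFRA+/CD24- cells of 72 h. Single cells were measured by SCRB-seq, a plate-based 3′-end UMI method, at 9 times and by SMART-seq2, which covers full transcripts, at 4 times. Every sample thus derives from the E14 line. XEN-like and ectoderm-like are names for cells obtained in culture, not tissues.

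The 25 bulk libraries held between 1063830 and 2459483 UMIs, and 19 of the 22 bulk conditions had 1 library. SCRB-seq gave 2448 of 3456 wells above 2000 UMIs, and SMART-seq2 gave 339 cells. The XEN marker list (11 genes, among them Sparc, Gata6 and Dab2) summed to 281 and 197 CPM (UMIs scaled to a library of 1000000) in the mESC libraries, to 12049 and 6664 CPM in sorted XEN-like cells and to 485 and 1779 CPM in sorted ectoderm-like cells, the second ectoderm-like library being the higher. Pluripotency markers still summed to 6267 and 4524 CPM in sorted XEN-like cells, against 13436 and 18353 CPM in mESCs and 790 and 432 CPM in sorted ectoderm-like cells. Gene by gene, however, all 12 of these markers were called lower in sorted XEN-like cells than in mESCs by the test described below. Their median log2 fold change was -4.60. Macrophages are rich in cathepsins. Their markers, Csf1r, Ptprc and Lyz2 among them, summed to at most 5.35 CPM in any bulk library, and the part of such cells was not tested. In bulk libraries fewer cells of a type and less RNA per cell cannot be told apart.

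The genes lie on 8 chromosomes (GENCODE M21 on GRCm38). Ctsb spans chr14:63122462-63145923 on the plus strand, Ctsc chr7:88278085-88310888 (plus), Ctsd chr7:142375911-142388038 (minus), Ctsh chr9:90054152-90076089 (plus) and Ctsl chr13:64359337-64370890 (minus). Ctsz spans chr2:174427493-174439039 (minus), Lgmn chr12:102394084-102439813 (minus), Lamp1 chr8:13159161-13175338 (plus) and Lamp2 chrX:38401357-38456454 (minus). Ctsh, Lgmn and Lamp2 overlap no other annotated gene. Ctsd overlaps the protein-coding model Gm49369 on its own strand. Ctsl overlaps the pseudogene Gm49230 on its own strand and the antisense gene Gm47123 on the opposite strand. Ctsb, Ctsc, Ctsz and Lamp1 overlap genes on the opposite strand. Reads in the shared stretches may thus be assigned to either gene. Of the last 500 bases of Ctsc, 7.03% of 46-base windows also occur in other annotated transcripts, and the other 8 members shared none.

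Promoters of 7 members were held in the RefSeq promoter table used here (GRCm38.p6, 250 bases before to 50 after each gene start). Ctsb and Ctsh were not among them. The letters CACGTG are the core of the CLEAR element and their own reverse complement. They were found in 4 of the 8 promoters of these 7 members, each of a different member. Of all 32851 promoters of the table, 7.15% held them. The longer GTCACGTG contains the first word and was also searched as its reverse complement CACGTGAC. It was found in 3 of the 8 promoters, those of Ctsd, Lamp1 and the inner start of Lgmn, and in 2.25% of all promoters. The windows around these words are printed to show where the letters stand in each gene, 5′ to 3′ on the strand of the gene, with the words in capitals.
Ctsd, chr7:142388042-142388077, minus strand, word 245 bases before the start: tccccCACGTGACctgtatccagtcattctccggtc
Ctsd, chr7:142387908-142387937, minus strand, 98 bases before: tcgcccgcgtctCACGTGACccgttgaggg
Lamp1, chr8:13159075-13159176, plus strand, words from 61 to 15 bases before: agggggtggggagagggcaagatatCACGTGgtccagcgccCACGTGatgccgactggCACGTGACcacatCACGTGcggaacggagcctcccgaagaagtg
Lgmn, chr12:102439111-102439166, minus strand, 49 bases before the inner of its RefSeq starts: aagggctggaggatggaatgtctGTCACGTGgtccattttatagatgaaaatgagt
Ctsl, chr13:64370726-64370770, minus strand, 236 bases before: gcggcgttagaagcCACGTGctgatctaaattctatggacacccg
Lamp1 held 4 copies of CACGTG within 1 promoter. The RefSeq start of Lamp1 is the end of its GENCODE span, whereas the starts used for Ctsd, Ctsl and Lgmn lie 211, 370 and 721 bases inside the spans given above. By GENCODE, the second Ctsd window therefore lies within a 5′ UTR, 28 bases of the Ctsl window lie in a 5′ UTR and the rest in an intron, and the Lgmn window is intronic, while the first Ctsd window lies before the gene and that of Lamp1 does so apart from 16 bases of its first exon. A match of letters is a description and does not show that a factor binds there, and the absence of the letters from the windows of Ctsc, Ctsz and Lamp2 says only that they are not in these 300 bases.

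The bulk time course shows how the members moved over 96 h of RA. Most levels fell within the first day, with intervals below 1 for 5 members at 24 h, and all 9 were higher at 96 h than at 24 h, with Ctsl far ahead of the others in level. The 9 members together were at 833 CPM in the first mESC library, 505 CPM at 24 h and 3589 CPM at 96 h. Each time point is 1 library, so ratios are given with exact 95% intervals that cover counting error only, and no test was run. As a call, a ratio of at least 2-fold was used where the larger of both libraries held 50 UMIs or more.

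Ctsl is a cysteine endopeptidase abundant in the endoderm of the yolk sac. On a scale in which each 3′ UMI counts 1 molecule whatever its length, Ctsl was the most abundant member in all 25 bulk libraries. Its level was 287 CPM in the first and 704 CPM in the second mESC library, 213 at 6 h, 177 at 12 h, 188 at 24 h, 228 at 36 h, 353 at 48 h, 464 at 60 h, 664 at 72 h, 1109 at 84 h and 2191 CPM at 96 h. Ctsl rose at each step after 12 h, was 11.7-fold higher at 96 h than at 24 h (10.5 to 13), and made up 61.1% of the members' UMIs at 96 h against 34.5% in the first mESC library.

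Ctsd, the major aspartic protease of lysosomes, and Ctsb, a cysteine protease that trims peptides from their ends, were next in abundance. Ctsd went from 221 CPM in the first mESC library to 130 CPM at 24 h and 469 CPM at 96 h. Ctsb went from 166 CPM through 99.8 CPM at 36 h to 412 CPM at 96 h. Ctsb was thus below its first level until 48 h and Ctsd until 36 h, and at 96 h they were 2.48-fold (2.19 to 2.80) and 2.12-fold (1.90 to 2.37) above the first mESC library but 1.22-fold and 1.49-fold above the second.

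Ctsc, which activates serine proteases of immune cells by removing dipeptides, had the deepest fall. It was at 54.2 and 83.6 CPM in the mESC libraries, 12.7, 6.61 and 6.48 CPM after 6, 12 and 24 h, and returned to 45.6 CPM at 96 h. The ratio of 24 h to 0 h was 0.119 (0.0618 to 0.212), and 96 h was not distinguishable from the first mESC library at this depth (0.841, 0.633 to 1.11). Lamp2 fell to 0.333 of its 0 h level at 24 h (0.202 to 0.531), from 35.9 to 12.0 CPM, and reached 108 CPM at 96 h. Ctsc and Lamp2 were the 2 of 6 members with enough UMIs that fell by 2-fold or more from 0 h to 24 h, against 5.23% of all genes, and none rose by 2-fold, against 6.73%. The members' median ratio from 0 h to 24 h was 0.653, while all genes with enough UMIs had a median log2 ratio of 0.06. With the second mESC library as the start, the summed members were at 0.314 and 5 members were lower by 2-fold.

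In bulk, Ctsz and Lgmn did not share the early fall from the first mESC library. From the second, which had 43.1 CPM of Ctsz, the ratio of Ctsz at 24 h was 0.555 (0.385 to 0.791), and that of Lgmn was 1.34 (0.742 to 2.45). Ctsz, a carboxypeptidase, was at 17.9 CPM in the first mESC library, between 23 and 35.1 CPM from 6 h to 36 h, and at 166 CPM at 96 h. Lgmn, which matures other cathepsins, stayed between 7.26 and 17.4 CPM until 60 h and then climbed to 27.8, 36.3 and 88.7 CPM at 72, 84 and 96 h. Lamp1 lay between 26.9 and 47.4 CPM until 60 h and was at 98.9 CPM at 96 h. Ctsh, an aminopeptidase, had 1 UMI in the first mESC library, none in the second or at 12, 24 and 36 h, and 21 UMIs (10.8 CPM) at 96 h. With 3 UMIs as the limit for a count of 0, Ctsh was at least 7.20-fold higher at 96 h than at 24 h.

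**Figure D1:**
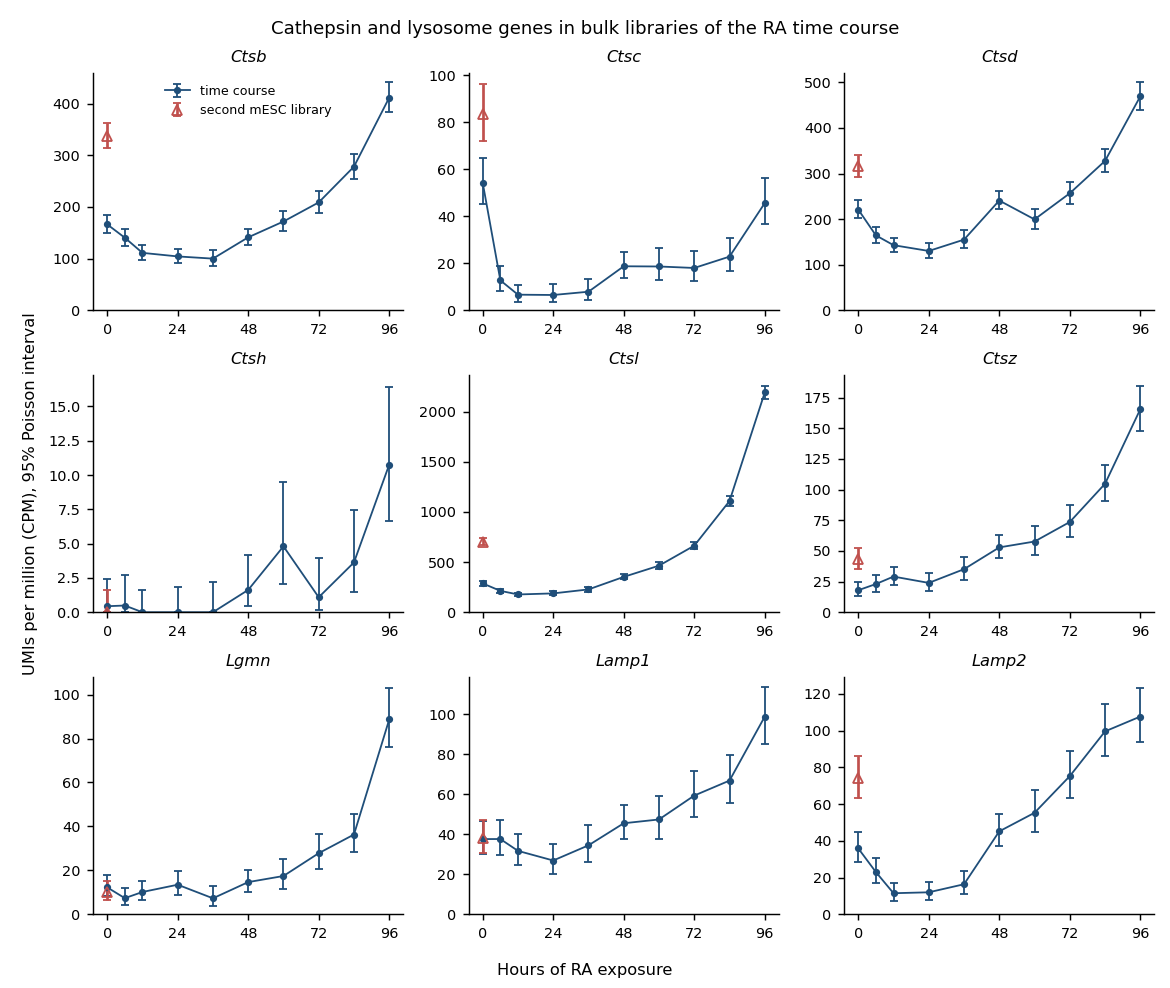
Level of each of the 9 genes in bulk RNA-seq, in CPM, against hours of RA exposure. Points are single libraries with exact 95% Poisson intervals, and the red triangle at 0 h is the second mESC library. Ctsc and Lamp2 drop within 24 h, and Ctsl climbs from 188 CPM at 24 h to 2191 CPM at 96 h.

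From 24 h to 48 h, Ctsz and Lamp2 rose by 2-fold or more, 2 of 6 members with enough UMIs (8.58% of all genes rose and 4.42% fell). From 24 h to 96 h all 8 members with enough UMIs rose by 2-fold or more, where 19.4% of all genes rose and 9.35% fell, with a median ratio of 6.92 over the members and a median log2 ratio of 0.14 over all genes. Against the first mESC library 7 of 8 were higher by 2-fold or more at 96 h (22% of all genes were higher and 8.28% lower), the exception being Ctsc. The starting level weighs on this count. Against the second mESC library 4 of 8 were higher by 2-fold (Ctsl, Ctsz, Lgmn and Lamp1, with ratios of 3.11, 3.84, 8.86 and 2.58), where 23.8% of all genes were higher and 9.05% lower, and Ctsc was at 0.546 (0.420 to 0.705). The 2 mESC libraries themselves differed: Ctsb, Ctsl, Ctsz and Lamp2 were 2.03-, 2.45-, 2.40- and 2.06-fold higher in the second, 4 of 7 members where 4.58% of all genes were higher and 4.33% lower, and the other members were at ratios between 0.817 and 1.54, apart from Ctsh with 0 UMIs. XEN markers summed to 3445 CPM at 72 h and 12296 CPM at 96 h, over which Ctsl and Lgmn rose from 664 and 27.8 CPM to 2191 and 88.7 CPM. The part of the changing cell types in these ratios was not tested. At 96 h Ctsl and Lgmn in the whole culture were above every library sorted at that time. Sorted XEN-like cells had 1467 and 1823 CPM of Ctsl and 52.3 and 52 CPM of Lgmn. Sorted ectoderm-like cells had 336 and 923 CPM of Ctsl and 6.67 and 27.1 CPM of Lgmn. No other member was above every sorted library, and the cause was not tested.

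Genes around the cathepsins were read from fixed lists with the same 2-fold rule. Of 18 lysosomal hydrolases and their activators with enough UMIs, 12 rose from 24 h to 96 h and 1 fell (Manba, a beta-mannosidase), and 4 of 15 subunits of the vacuolar ATPase, the pump that acidifies lysosomes, rose. Among 6 genes of sorting to lysosomes 5 rose, among them Dab2, Lrp2 and Cubn, which act in endocytosis and of which Dab2 is also a XEN marker. None of 6 MiT factor and Ragulator genes passed 2-fold in either direction. Of all genes with enough UMIs, 19.4% rose and 9.35% fell from 24 h to 96 h, so the count of ATPase subunits was near that share. Against the second mESC library, however, only 3 of 19 hydrolases were higher by 2-fold at 96 h and 6 were lower, whereas against the first 9 were higher and 1 lower. Of all genes, 23.8% were higher and 9.05% lower against the second, and 22% and 8.28% against the first.

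Within the 48 h culture, cells without PDGFRA were split by CD24, and Cd24a RNA followed the gates with 19.4, 35.7, 60.2 and 127 CPM from Q1 to Q4. The members changed little over this gradient. Lamp2 was the exception, with 12.7, 22.1, 23.5 and 32.8 CPM from Q1 to Q4 and a ratio of 2.58 between the ends (1.5 to 4.63). It was the 1 member of 5 past 2-fold, against 2.1% of all genes. Ctsl had a ratio of 1.19 (1.03 to 1.36), which turned to 0.955 relative to Gapdh, and the intervals of the other 7 members included 1. XEN markers summed to between 209 and 268 CPM in the 4 gates.

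At 72 h the same split gave opposite slopes. Over T1, T2 and T3, with 49.7, 122 and 256 CPM of Cd24a, Lamp2 was at 52.8, 82.9 and 94.4 CPM, which is a ratio of 1.79 (1.32 to 2.44) between the ends. Ctsz was at 40.4, 26.5 and 20.0 CPM, Ctsc at 22.5, 12.3 and 7.68 CPM and Ctsd at 306, 256 and 200 CPM. These 3 fell from T1 to T3 with ratios of 0.494, 0.341 and 0.654, whose intervals lay below 1, as did that of Ctsb (0.797, 0.653 to 0.972). Ctsz was the 1 of 6 members past 2-fold, against 7.95% of all genes, and was not relative to Gapdh. XEN markers summed to 797, 473 and 356 CPM from T1 to T3, in the same order as Ctsz, Ctsc and Ctsd, and their part in these slopes was not tested.

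PDGFRA+/CD24- cells of 72 h stood apart from all 3 terciles for most members. Ctsl was at 910 CPM there, against 371, 424 and 338 CPM in T1 to T3. Lgmn was at 46.3 CPM against 6.99, 8.82 and 6.91 CPM, and Ctsc at 86.7 CPM, its highest level in any library. Against the sum of the terciles, Lgmn was 6.16-fold (3.89 to 9.98), Ctsc 6.09-fold (4.37 to 8.59), Ctsz 3.04-fold (2.33 to 3.98) and Ctsl 2.42-fold (2.24 to 2.61) higher. These were the 4 of 8 members past 2-fold, where 7.08% of all genes were. Ctsd and Lamp2 had ratios of 1.06 and 1.02, and the intervals of both included 1. PDGFRA+/CD24- cells held 4380 CPM of XEN markers and 7169 CPM of pluripotency markers, against 1314 to 4643 CPM of the latter in the terciles.

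**Figure D2:**
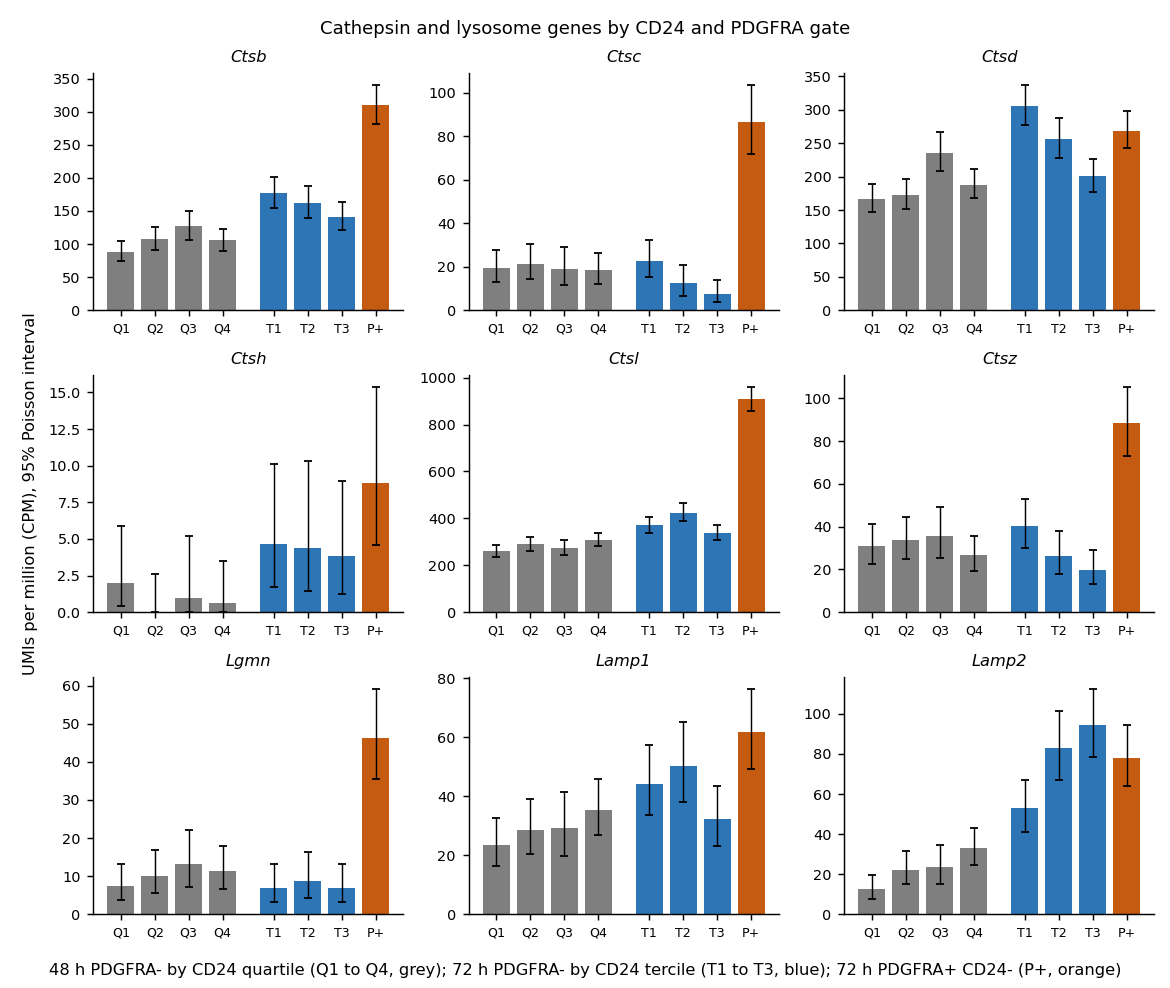
Level of each member in CPM in cells sorted by CD24 and PDGFRA, with 1 library a bar and exact 95% Poisson intervals. Grey bars are the CD24 quartiles of PDGFRA- cells at 48 h, blue bars the terciles at 72 h, and the orange bar PDGFRA+/CD24- cells at 72 h. Lamp2 rises along both CD24 gradients, while Lgmn and Ctsc are high in PDGFRA+/CD24- cells, at 46.3 and 86.7 CPM.

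The sorted populations and mESCs had 2 libraries each and were tested with edgeR's quasi-likelihood test across 8947 genes, with Benjamini-Hochberg adjustment. The study's methods call the replicates biological, but neither they nor the labels say whether a separate culture was used for each, so p-values measure the spread between these samples, and a permutation of 2 against 2 libraries could not go below 0.333. Fold changes are relative to TMM factors. Scaling by library totals instead moved the median log2 fold change of all genes to 0.15, 0.36 and -0.16 in the XEN-like to mESC, ectoderm-like to mESC and XEN-like to ectoderm-like comparisons.

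Of the 9 members, 5 were higher in sorted XEN-like cells than in mESCs (12.3% of all genes were called higher and 10.5% lower) and none was lower. Ctsz had 215 and 166 CPM in XEN-like cells against 17.9 and 43.1 CPM in mESCs. The groups were far apart, with a log2 fold change of 2.41 (SE 0.41, adjusted p = 0.00146), and the call held under all 11 alternative settings. Lgmn had 52.3 and 52 CPM against 12.2 and 10.0 CPM, with a log2 fold change of 2.02 (SE 0.51, adjusted p = 0.0151). Ctsl had 1467 and 1823 CPM against 287 and 704 CPM, with a log2 fold change of 1.52 (SE 0.50, adjusted p = 0.0486), and Lamp1 had 125 and 64.7 CPM against 37.6 and 38.3 CPM, with 1.1 (SE 0.35, adjusted p = 0.0439). The calls of Ctsl and Lamp1 were near the threshold and held in 6 and 7 of 11 alternatives, with adjusted p up to 0.237 and 0.304.

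Ctsh was the remaining call, with 9 and 26 UMIs in sorted XEN-like cells and 1 and 0 UMIs in mESCs (adjusted p = 0.0207). The summed UMIs gave a ratio of 52.3 with an interval from 8.79 to 2125. Ctsd at 506 and 531 CPM against 221 and 316 CPM did not overlap between the groups but missed the threshold (log2 fold change 0.74, SE 0.27, adjusted p = 0.0725). Ctsb, Ctsc and Lamp2 did not pass, with adjusted p of 0.255, 0.403 and 0.419. The number of members called higher was 3 without the first mESC library, 4 without the second, 3 without the first XEN-like library and 2 without the second XEN-like library. Over the members the median log2 fold change was 1.1, against -0.06 for all genes.

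Sorted ectoderm-like cells differed from mESCs in fewer members: 1 was higher (Ctsh, where 9.85% of all genes were called) and 2 were lower (Ctsc and Ctsb, where 9.28% were). Ctsc had 3.89 and 13.6 CPM against 54.2 and 83.6 CPM, with a log2 fold change of -3.31 (SE 0.50, adjusted p = 0.000939), under all 11 alternatives. Ctsb had 108 and 168 CPM against 166 and 337 CPM, groups that overlapped, with -1.18 (SE 0.37, adjusted p = 0.0423), and its call held in 4 of 11 alternatives. Ctsh had 6 and 32 UMIs against 1 and 0 UMIs, a ratio of 52 (8.79 to 2109) with an adjusted p of 0.0307. The Ctsh level of the second ectoderm-like library was 20.7 CPM and that of the first 3.33 CPM. Leaving out the first or second mESC library, or the second ectoderm-like library, ended the call of Ctsh, so that 0 members were then higher. Members lower numbered 3 without the first mESC library and 1, Ctsc, without each of the other 5 libraries.

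Ctsl did not pass in ectoderm-like cells, and its replicates were apart, at 336 and 923 CPM (log2 fold change 0.04, adjusted p = 0.972). The library with 923 CPM was the one with 1779 CPM of XEN markers. Lgmn and Ctsh were likewise higher in that library, at 27.1 against 6.67 CPM for Lgmn. Lamp1 was lower there, at 35.5 against 63.4 CPM. Ctsd and Ctsz differed less, at 206 against 188 CPM and 41.99 against 30.57 CPM. Ctsh was also higher in the second sorted XEN-like library, at 23.7 against 4.57 CPM. The part of XEN-like cells in these differences was not tested. Without the second ectoderm-like library, the log2 fold change of Ctsl was -0.94, and without the first ectoderm-like library 0.86. Lamp2, with 87.8 and 117 CPM against 35.9 and 74 CPM, was above both mESC libraries but did not pass (adjusted p = 0.333). The members' median log2 fold change was 0.04, and that of all genes 0.05.

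Sorted XEN-like cells were then compared directly with sorted ectoderm-like cells, both taken after 96 h of RA. Of 12 pluripotency markers, 5 were higher and 1 lower in XEN-like cells, with a median log2 fold change of 1.55. The part of this difference in the comparison was not tested. Ctsc, Ctsz, Ctsb, Lgmn and Ctsd were higher in XEN-like cells, 5 of 9 members where 6.99% of all genes were called higher, and none was lower (5.74%). The log2 fold change of Ctsc was 2.78 (SE 0.50, adjusted p = 0.00514) and that of Ctsz 2.49 (SE 0.41, adjusted p = 0.00321). Ctsb, with 481 and 409 CPM against 108 and 168 CPM, differed by 1.78 (SE 0.37, adjusted p = 0.00988), and Ctsd by 1.51 (SE 0.28, adjusted p = 0.00566). Lgmn was near the threshold (1.73, SE 0.51, adjusted p = 0.0461), and its call held in 6 of 11 alternatives. Ctsl and Lamp1 missed it at adjusted p of 0.0781 and 0.0801, with log2 fold changes of 1.49 and 1.04.

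Lamp2 and Ctsh did not differ beyond their spread between the lineages. Lamp2 had 77.7 and 98.4 CPM in XEN-like and 87.8 and 117 CPM in ectoderm-like cells, a log2 fold change of -0.11 with an SE of 0.38 (adjusted p = 0.893), and Ctsh had 0.27 with an SE of 0.87. The members' median was 1.51 on the log2 scale against -0.06 for all genes. Without the first ectoderm-like library, 1 member (Ctsc) passed, and without the other libraries in turn between 4 and 6 passed.

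**Figure D3:**
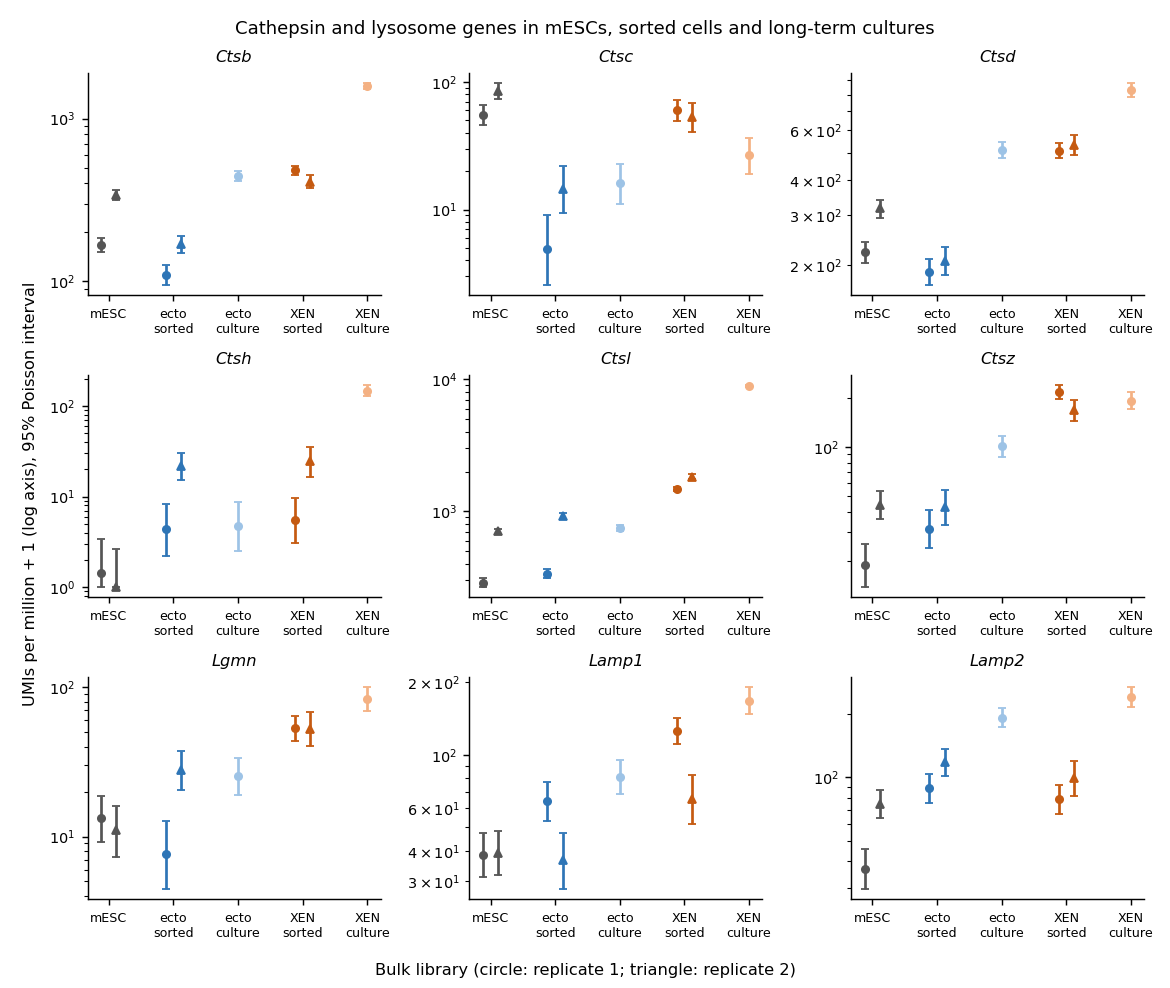
Level of each member in mESCs, sorted cells and long-term cultures, as CPM + 1 on a log axis. Each mark is 1 library, with circles for the first and triangles for the second replicate. Ctsz and Lgmn separate sorted XEN-like cells from mESCs and from ectoderm-like cells, and the XEN-like culture reaches 8842 CPM of Ctsl.

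The lists of other lysosome genes were read in the same edgeR fit. Among 31 tested hydrolases and activators, 7 were higher and 3 lower in XEN-like cells than in mESCs (12.3% and 10.5% of all genes were), so that the count of lower genes was near the share over all genes. Lipa, the acid lipase, had 22.3 and 43.7 CPM against 1.75 and 2.61 CPM (log2 fold change 3.67, SE 0.60, adjusted p = 0.00123), and Smpd1, the acid sphingomyelinase, was at 2.70 (SE 0.66, adjusted p = 0.0118). Manba and Hexa, a subunit of beta-hexosaminidase, fell, with log2 fold changes of -2.21 (adjusted p = 0.0041) and -2.07 (adjusted p = 0.0118). The calls of Smpd1 and Hexa held in 8 of 11 alternatives each, with adjusted p up to 0.197 and 0.117. The list's median was 0.39. Ectoderm-like cells had 2 hydrolases higher and 7 lower than mESCs with a median of -0.58 (9.85% and 9.28% of all genes were). Between the sorted lineages 5 were higher in XEN-like cells and none lower, with a median of 1.00 (6.99% and 5.74% of all genes were). Acp5, an acid phosphatase, and Asah1, the acid ceramidase, led those, with 3.27 (SE 0.62, adjusted p = 0.0062) and 2.65 (SE 0.41, adjusted p = 0.00256).

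Of the cathepsin inhibitors, Cst3 (cystatin C, which is secreted) and Cstb (cystatin B, which is cytosolic) were the 2 of 7 that could be tested. Cst3 had 1045 and 949 CPM in XEN-like cells against 113 and 126 CPM in mESCs, a log2 fold change of 2.85 (SE 0.44, adjusted p = 0.000859). Cst3 thus rose in the cells in which Ctsz, Lgmn and Ctsl rose. Cstb fell in ectoderm-like cells, from 559 and 1167 CPM in mESCs to 187 and 250 CPM (-2.30, SE 0.38, adjusted p = 0.00161). Between the sorted lineages both inhibitors were higher in XEN-like cells, by 2.21 and 1.46 on the log2 scale (adjusted p = 0.00718 and 0.0248), and the call of Cstb held in 8 of 11 alternatives.

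Of 12 tested lysosomal membrane proteins 4 were higher and 1 lower in XEN-like cells than in mESCs (12.3% and 10.5% of all genes were). The median log2 fold change of the list was 0.79. Those higher included Ctns, the cystine exporter (2.30, SE 0.53, adjusted p = 0.0086), and Slc17a5, the sialic acid exporter (1.86, SE 0.54, adjusted p = 0.0284), while Tmem55b fell (-1.32, SE 0.30, adjusted p = 0.00883). The calls of Slc17a5 and Tmem55b held in 7 and 9 of 11 alternatives. All 16 subunits and accessory proteins of the vacuolar ATPase were tested, and 3 were higher and none lower in XEN-like cells than in mESCs, near the 12.3% of all genes called higher. Atp6v0a1 led them with 2.25 (SE 0.39, adjusted p = 0.00163), and Atp6v0e rose by 1.25 (SE 0.28, adjusted p = 0.0081). Between the lineages 5 of the 16 were higher in XEN-like cells, with a median of 0.87, where 6.99% of all genes were. In ectoderm-like cells 2 were lower than in mESCs, near the 9.28% of all genes, with a median of -0.67.

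Some genes in the list of sorting to lysosomes differed in RNA level, and transport itself was not measured. Gnptab, a subunit of the enzyme that starts the mannose 6-phosphate tag, had 20.8 and 9.11 CPM in XEN-like cells against 1.31 and 3.92 CPM in mESCs (log2 fold change 2.30, SE 0.60, adjusted p = 0.0171). The receptors that carry the tagged enzymes, M6pr and Igf2r, did not pass, with 0.11 (adjusted p = 0.82) and 0.46 (adjusted p = 0.565). In all, 4 of 13 sorting genes were higher, Dab2 and Cubn with log2 fold changes of 8.74 and 8.05, and Sorl1 was lower (-2.69, SE 0.77, adjusted p = 0.0256), on 4 and 0 UMIs in XEN-like cells (12.3% of all genes were higher and 10.5% lower). Sort1, which encodes the sorting receptor sortilin, had 15.0 and 16.8 CPM in ectoderm-like cells and 2.54 and 1.82 CPM in XEN-like cells, and was lower in the latter (-2.70, SE 0.71, adjusted p = 0.0291). The calls of Gnptab, Sorl1 and Sort1 held in 8, 5 and 6 of 11 alternatives, with adjusted p up to 0.244, 0.15 and 0.165.

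Of 12 tested MiT factor and Ragulator genes, Mitf alone passed between XEN-like cells and mESCs, and it was lower, with 7.62 and 1.82 CPM against 21.9 and 43.1 CPM (log2 fold change -2.86, SE 0.55, adjusted p = 0.00306). Of all genes, 10.5% were called lower in this comparison. In ectoderm-like cells Mitf was lower as well (-3.89, SE 0.60, adjusted p = 0.00104). Tfe3 did not pass in either comparison, and Tfeb, at most 4.81 CPM in any bulk library, was too low to be tested. The other cathepsins were mostly too low as well: 2 of 17 could be tested, Ctsa and Tpp1, and none passed between XEN-like cells and mESCs or between the lineages. In ectoderm-like cells Ctsa was called lower than in mESCs (-1.48, SE 0.46, adjusted p = 0.0452). Its groups overlapped, and the call held in 3 of 11 alternatives.

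**Figure D4:**
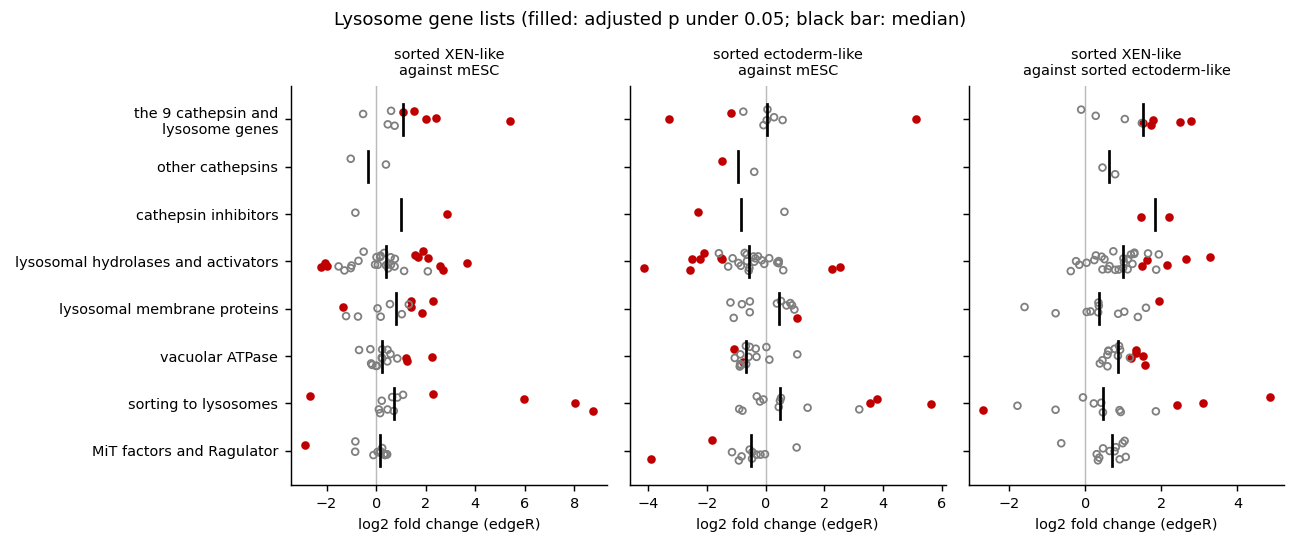
Fitted log2 fold changes from edgeR for the members and the lists of other lysosome genes in the 3 comparisons of sorted cells and mESCs. Each point is 1 gene, filled where the adjusted p was under 0.05, and the bar marks the median of the list. The points of Ctsh against mESCs rest on 1 and 0 UMIs in mESCs. The members' medians are 1.1, 0.04 and 1.51.

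The long-term cultures, with 1 library each, were set side by side, and the XEN-like culture held the highest level of 6 of the 9 members (Ctsb, Ctsd, Ctsh, Ctsl, Lamp1 and Lamp2) among all bulk libraries. Ctsl was at 8842 CPM in the XEN-like culture, where the ectoderm-like one had 746 CPM, a ratio of 11.8 (11.2 to 12.5), and made up 73% of the members' UMIs in the XEN-like culture. Ctsb was at 1584 and 442 CPM, a ratio of 3.59 (3.31 to 3.89). Ctsh was at 148 and 3.75 CPM, a ratio of 39.4 (18.8 to 99.2), and no other library passed 23.7 CPM. Ctsb, Ctsh, Ctsl, Lgmn and Lamp1 were the 5 of 8 members past 2-fold between the cultures (19.5% of all genes were higher and 24.9% lower by 2-fold). The other ratios ran from 1.26 for Lamp2 to 1.91 for Ctsz.

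The XEN-like culture differed from sorted XEN-like cells in both directions. Ctsl was 5.55-fold (5.37 to 5.73), Ctsb 3.48-fold, Ctsh 12.9-fold and Lamp2 2.82-fold higher in the culture, 4 of 9 members where 17.2% of all genes were higher by 2-fold. Ctsc fell, from 58.9 and 52 CPM in the sorted libraries to 25.5 CPM, a ratio of 0.452 (0.308 to 0.648), where 21.8% of all genes were lower by 2-fold, but relative to Gapdh no member was lower by 2-fold. Ctsz was at 190 CPM in the culture against 215 and 166 CPM, a ratio of 0.965 (0.834 to 1.11). XEN markers summed to 10097 CPM in the XEN-like culture, within the range of the sorted libraries. Pdgfra, which is among these markers, was at 34.5 CPM in the culture against 144 and 143 CPM in the sorted libraries.

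In the ectoderm-like culture, Ctsb was 3.25-fold (2.89 to 3.65), Ctsd 2.60-fold (2.35 to 2.87) and Ctsz 2.78-fold (2.20 to 3.52) higher than in sorted ectoderm-like cells, 3 of 7 members where 13.7% of all genes were higher by 2-fold. Relative to Gapdh, which was at 1494 CPM in this culture and 2689 and 2769 CPM in the sorted cells, 7 members were higher by 2-fold. Ctsl was at 746 CPM, between the sorted libraries at 336 and 923 CPM, and Ctsh was lower, at a ratio of 0.33 (0.124 to 0.748) from 7 and 38 UMIs. Mesenchymal markers (Col1a1, Col3a1 and others) summed to 3873 CPM in this culture and to at most 21.1 CPM in every other library, and their part in these levels was not tested. Cd24a was at 18.7 CPM here and at 421 CPM in the XEN-like culture, the reverse of the sorted cells. By the study's methods, the ectoderm-like culture grew on coated dishes and the XEN-like culture as floating aggregates that were not dissociated. The medium, the time in culture, this way of growth and the cell state cannot be told apart in these comparisons.

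The SCRB-seq plates repeated the time course in single cells with 1 plate a time point, and UMIs were summed over cells. The members together made up 14.4 UMIs per 10000 at 0 h, 5.18 at 6 h, 3.92 at 24 h, 9.88 at 72 h and 18.5 at 96 h. The ratio of 24 h to 0 h was 0.271 (0.248 to 0.296), while bulk had 0.606 (0.561 to 0.654) against the first mESC library and 0.314 against the second. From 0 h to 24 h, 6 of 7 members fell by 2-fold or more in SCRB-seq (23.1% of all genes) and none rose (12.8%). Lamp2 fell furthest, from 1.59 to 0.0522 UMIs per 10000, a ratio of 0.0329 (0.0141 to 0.0657), and Ctsz was the exception with 1.13 (0.768 to 1.65). Lgmn, with 29 UMIs at 0 h and 5 at 24 h, had too few for a call. Its ratio was 0.212 (0.0641 to 0.554), a fall that bulk did not show.

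By 96 h, Ctsl stood at 6.59 UMIs per 10000, 2.57-fold (2.26 to 2.92) its level at 0 h and 12.8-fold (10.1 to 16.4) that at 24 h. Ctsz was 4.93-fold (3.57 to 6.85) higher than at 0 h. These were the 2 of 7 members past 2-fold upward (14.5% of all genes), while Ctsb (0.495, 0.394 to 0.616) and Ctsc (0.0589, 0.012 to 0.176) were lower by 2-fold, against 19.6% of all genes. Lgmn, with 46 UMIs in the larger plate sum, had too few for a call and was at a ratio of 4.11 (2.53 to 6.79).

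**Figure D5:**
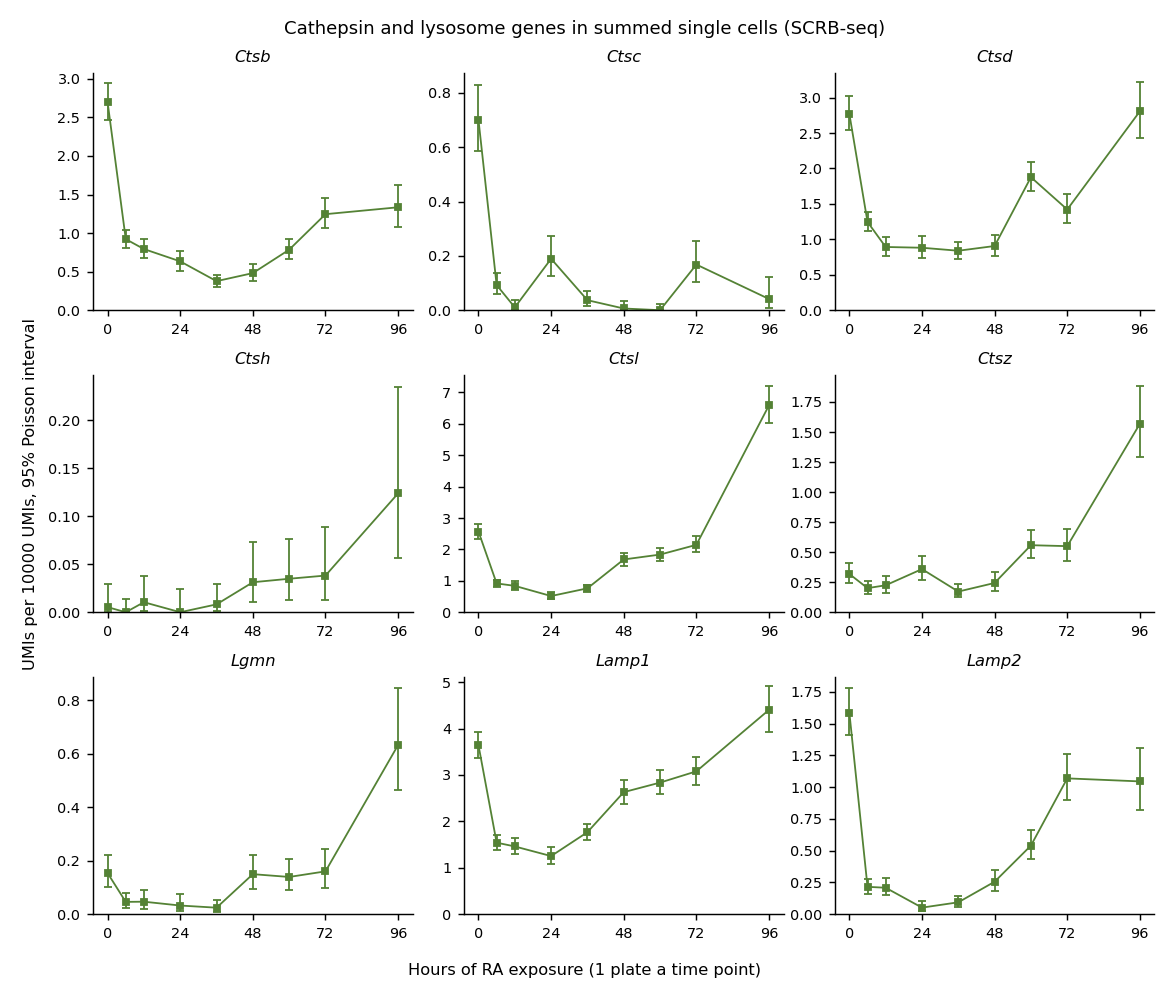
UMIs of each member per 10000 UMIs, summed over the SCRB-seq cells of 1 plate a time point, with exact 95% Poisson intervals, against hours of RA exposure. Lamp2 falls from 1.59 at 0 h to 0.0522 at 24 h, and Ctsl ends at 6.59 at 96 h.

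The share of cells with a UMI moved with these sums. After thinning each cell to 2000 UMIs, Ctsl was seen in 37.9% of cells at 0 h, 8.97% at 24 h and 61.3% at 96 h (54.3%, 17.6% and 78.1% without thinning). Lamp2 was seen in 20.6%, 1.38% and 16.1% of cells (39.7%, 2.41% and 28.5% without thinning). Ctsl was thus counted in a majority of cells at 96 h at this depth.

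Bulk and SCRB-seq did not give the same levels for every member. Lamp1 was at 364 UMIs per 1000000 in SCRB-seq and 37.6 in bulk at 0 h, 9.68-fold apart, and at 440 and 98.9 at 96 h. In SCRB-seq, unlike bulk, Lamp1 held more UMIs than Ctsl at each time from 0 h to 72 h (686 against 484 at 0 h). Ctsl led at 96 h, with 479 against 320 UMIs. Ctsl was at 659 in SCRB-seq and 2191 in bulk at 96 h, and Ctsc at 4.13, from 3 UMIs, and 45.6. Over the SCRB-seq plates Ctsc went up and down, with 29 UMIs at 24 h, 1 at 48 h, 0 at 60 h, 22 at 72 h and 3 at 96 h, and at 72 h it was at 0.168 UMIs per 10000 (0.105 to 0.254) where bulk had 18 CPM. The cause of these differences was not tested.

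The 137 cells of 96 h were divided into 2 clusters by k-means on variable genes from which the members were left out. The cluster with more XEN markers (66 cells, 193 XEN marker UMIs per 10000) was set beside the other (71 cells, 79.7), and no test was run because both come from 1 plate. Pluripotency markers were higher in the same cluster, at 11.3 against 7.64 UMIs per 10000, with Gm6083 and Dppa5a among its 10 leading genes, and their part in the differences was not tested. Ctsz was at 2.29 against 0.916 UMIs per 10000, a ratio of 2.50 (1.66 to 3.84), the 1 of 5 members past 2-fold upward where 3.83% of all genes were (6.76% were lower). Ctsl was at 7.17 and 6.07 (ratio 1.18, 0.983 to 1.42). The cluster with fewer XEN markers still held 79.7 of their UMIs per 10000, so it cannot stand for ectoderm-like cells alone. With clusters made on log2 values, XEN markers were at 181 and 37.5 UMIs per 10000 and Ctsl at 7.62 and 4.52. The ratio of the summed members was then 1.91 rather than 1.30 and that of Ctsl 1.69 (1.36 to 2.11). The size of the difference thus depended on how cells were assigned.

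SMART-seq2 gave mean RPKM values, which are per transcript length, over 82, 86, 89 and 82 cells at 0, 12, 24 and 48 h. Read depth is unknown in these values, and with 1 sample a time point no test was run. Lamp1 was at 254, 41.7, 44.6 and 273 RPKM, a drop to 0.176 of its first level at 24 h with a return by 48 h. Lamp2 was at 68.2, 33.7, 22 and 53.2 RPKM, and Ctsc at 57.1, 18.4, 12.4 and 42.4 RPKM. These 3 were lower by 2-fold or more at 24 h than at 0 h, out of 8 members, where 10.3% of all genes were. The 48 h mean of Ctsc rested on few cells: 36.6% of cells were over 1 RPKM, and the highest had 1263 RPKM.

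Ctsl was at 176, 125, 95.0 and 239 RPKM, with a range of 0 to 2953 RPKM and a median of 170 RPKM over the cells of 48 h. From 24 h to 48 h, 5 of 9 members rose by 2-fold or more (Ctsc, Ctsh, Ctsl, Lamp1 and Lamp2), where 18.5% of all genes did. As means of log2(RPKM + 1), Ctsc and Ctsh rose by 1.16- and 1.15-fold, so their calls were lost, and Ctsz passed at 2.33-fold. Against 0 h, 2 of 9 were past 2-fold at 48 h, where 22.5% of all genes were: Ctsz, at 111 against 55.3 RPKM, and Ctsh, which was listed at 0 in all cells of 0 h and over 1 RPKM in 5 cells of 48 h. Ctsb and Ctsd went from 77.9 and 173 RPKM through 39.6 and 111 RPKM at 24 h to 55.8 and 185 RPKM at 48 h. Per transcript length Lamp1, Ctsl and Ctsd were the most abundant members at 0 h, and Ctsh the least.

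The members were also compared with each other across the 25 bulk libraries, on the log2(CPM + 1) scale. Ctsb and Ctsd were the most alike pair (Pearson r = 0.941 over 25 libraries), followed by Ctsb and Ctsl (r = 0.935). Ctsc was the member least like the others, with r between 0.253 and 0.570 for its pairs. Among 4428 other genes with a mean of at least 20 CPM, those most like the members' mean z-score were Pttg1ip (r = 0.947), Clic1 (0.942), Atp6ap1 (0.941), Creb3 (0.939) and Galnt2 (0.933). Atp6ap1 is an accessory protein of the vacuolar ATPase. It was at 31.1 and 49.6 CPM in mESCs, 101 and 117 CPM in sorted XEN-like cells and 194 CPM in the XEN-like culture. Libraries of 1 time course and of cells sorted from it share their culture, so these correlations are descriptions.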

How the data were processed

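Bulk and SCRB-seq values are counts of UMIs, which the authors made by aligning reads with BWA 0.7.4 to mouse RefSeq transcripts and deposited without normalization. SMART-seq2 values are RPKM, deposited by the authors after TopHat and Cuffnorm, with build mm10 named in the submitters' processing notes. Between 0.127% and 0.14% of these values had a decimal comma and were read as decimals. From the bulk table, 2 genes with damaged values were left out. Members and gene lists were chosen with earlier results of these data known. Counts were scaled to library totals. The 6 libraries of mESCs and sorted cells were fitted in R 4.3.3 by edgeR 4.0.16 (with TMM, low-count filter, quasi-likelihood test, adjusted p under 0.05), which was tested on simulated data, and DESeq2 1.42.0 was an alternative. Single libraries were compared by ratios with exact conditional 95% intervals, which cover counting error only. Cells of SCRB-seq were wells holding over 2000 UMIs, and doublets were not called. The 9 plates use the same 384 well names, and no 2 wells held identical profiles. Beside the 9 members, a list gene was named where it had 1 of the 2 largest called changes of its list in a direction, or as a gene of known role (Tfeb, Tfe3, Mitf, M6pr, Igf2r, Gnptab, Cst3, Cstb). The SMART-seq2 pattern of Lamp1, and Ctse, were chosen after seeing their values.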

Additional observations from a re-analysis of the deposited data

How the results depend on the processing

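The sorted comparisons rest on 2 libraries a group, and the other conditions on 1 library, which limits what can be called. Of 295 values of members in the edgeR comparisons under other settings, 238 kept their direction and call, 30 lost the call, 13 gained it and 14 changed sign. Members called higher in XEN-like cells than in mESCs numbered 3 with DESeq2 and 2 to 5 when 1 library was left out. Against mESCs, members higher in ectoderm-like cells numbered 0 when only both groups were fitted and 0 to 1 leaving out 1 library, and members lower numbered 1 with library totals, 1 with only both groups and 1 to 3 leaving out 1 library. Between the lineages 1 to 6 members were called leaving out 1 library. All genes called higher in ectoderm-like cells numbered 479 with DESeq2, 1372 with library totals (587 lower) and 1337 without the filter on low counts. Library totals gave 1336 higher and 703 lower for XEN-like cells against mESCs. Between the lineages 243 genes were lower with DESeq2 and 828 without the filter.

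Leaving out 1 library gave 735 to 1096 genes higher and 532 to 866 lower for XEN-like cells against mESCs, 419 to 887 and 457 to 863 for ectoderm-like cells, and 151 to 745 and 145 to 626 between the lineages. Leaving out 1 library moved log2 fold changes across 0 in ectoderm-like cells against mESCs for Ctsl (-0.94 to 0.86), Ctsz (-0.61 to 0.72), Lgmn (-1.10 to 1.06) and Lamp1 (-0.32 to 0.37), and between the lineages for Ctsh (-1.37 to 2.22) and Lamp2 (-0.40 to 0.23). With library totals Ctsz in ectoderm-like cells was at 0.25. With the replicate block Ctsl and Lgmn were at -0.65 and -0.35. Same-numbered sorted libraries deviated together with r = 0.33 over 8947 genes, but only 2 pairs exist and the labels do not tie the numbers. With the replicate block 4 members were higher in XEN-like cells than in mESCs, 1 was higher and 3 lower in ectoderm-like cells, and 7 were higher in XEN-like than in ectoderm-like cells.

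For the summed members, the ratio of 24 h to 0 h was 0.550 with TMM factors and 0.314 with the second mESC library, with 5 members lower by 2-fold. From 24 h to 96 h it was 6.18 with TMM and 8.02 relative to Gapdh. From 0 h to 96 h it was 3.40 with TMM, 4.55 relative to Gapdh and 2.23 with the second mESC library (4 members higher). Relative to Gapdh, Q4 over Q1 was 0.959, and no member was lower by 2-fold in T3 than in T1. PDGFRA+ cells over T1 to T3 gave 2.18 with TMM and 1.74 relative to Gapdh, the cultures 5.96 and 4.08, and the XEN-like culture over sorted cells 3.62 and 4.95 (0 members lower relative to Gapdh). The ectoderm-like culture over sorted cells gave 3.31 relative to Gapdh, with 7 members higher. As means over SCRB-seq cells, the ratios were 1.40 (96 h to 0 h) and 5.32 (96 h to 24 h), and the clusters gave 1.91 on log2 values. In SMART-seq2 the members' median log2 ratio of 48 h to 0 h was 0.20 with scaled cells, -0.11 and -0.23 with pseudocounts of 1 and 0.1, and 0.12 with stricter cells, beside 0.10. For 24 h to 0 h it was -0.70, -1.08, -1.16 and -0.95 in the same order. The cause of these shifts was not tested.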

Other observations

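Ctse, an aspartic cathepsin of the stomach and of immune cells, was the cathepsin outside the 9 members that stood out once its values were seen. It had 1265 UMIs (873 CPM) in the XEN-like culture and at most 1.29 CPM in each of the other 24 bulk libraries. Ctsa, the protective protein of lysosomal sialidase, was at 91 CPM in the first and 290 CPM in the second mESC library, and the XEN-like culture had 261 CPM.

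Lamp1 in SMART-seq2 cells was at 254 RPKM at 0 h and 273 RPKM at 48 h, with 41.7 and 44.6 RPKM between. Of 8050 genes with a mean of at least 10 RPKM at both 0 h and 48 h, 6 were at least 4-fold lower at both 12 h and 24 h than at both of those times: AF357426, Cd24a, Dapk3, Dppa3, Lamp1 and Snora34. At 2-fold the number was 34, and Ctsc was the other member among them by its means. The 48 h mean of Ctsc rested on few cells, the highest at 1263 RPKM. Its share of cells over 1 RPKM did not return, at 44.2%, 38.2% and 36.6% at 12, 24 and 48 h. The pattern was looked for after the values of Lamp1 had been seen, and it has no test. In bulk the level of Lamp1 was 37.6 and 38.3 CPM in the mESC libraries, and after 12, 24 and 48 h it was 31.7, 26.9 and 45.5 CPM. In SCRB-seq it was at 3.64, 1.46, 1.25 and 2.63 UMIs per 10000 at 0, 12, 24 and 48 h, with intervals at 12 h and 24 h below those at 0 h and 48 h.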
